A study of Mus musculus with 6 samples.

Results

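The genes described here carry sulfur from methionine to cysteine and from cysteine into glutathione. They are 10 genes picked by function, the rows of the deposited table whose gene symbol equals Cth, Cbs, Mat2a, Ahcy, Slc7a11, Gclc, Gclm, Gss, Chac1 or Gpx4, among 23203 loci in all. They were chosen with earlier results of the same comparison known, among them the rise of Cth. Their differences are therefore given as a description. No p-value of theirs is printed, and nothing is read from whether they were called. The study cultured naive mouse CD4 T cells for 48 h on plates coated with anti-CD3e at 10 µg/ml, with anti-CD28 at 1 µg/ml. Its cytokines were TGFb1 at 2.5 ng/ml, IL-23 at 10 ng/ml and IL-6 at 20 ng/ml, which turn the cells into Th17 cells, the helper T cells that make IL-17. Every culture received all of these agents; 3 had the vehicle DMSO and 3 had 250 µM 2DG (2-deoxyglucose, a glucose analogue that inhibits glycolysis). The design asks how the Th17 transcriptome differs under 2DG. The labels used here give no strain or age, nor whether a group's libraries are from different mice, so p-values measure a spread that may be technical.

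In the methionine cycle, methionine is activated to S-adenosylmethionine, used for methylation, and recovered through homocysteine. Transsulfuration draws homocysteine out of that cycle and makes cysteine from it, while the cystine importer brings cysteine in from outside, as its oxidised dimer. Cysteine then limits the synthesis of glutathione, the main soluble antioxidant of the cell, and activated T cells are known to depend on cysteine supply and on glutathione for growth.

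With 2DG, Cth and Slc7a11, whose products supply cysteine, stood above vehicle in every library, while the genes for making glutathione from cysteine overlapped with vehicle. Cth, for the last enzyme of transsulfuration, rose 4.74-fold, from 5.14 ± 0.615 to 24.4 ± 4.94 FPKM (mean ± SD, n = 3 each). FPKM are fragments per kilobase, scaled for depth by a method that is not given. The mean of Slc7a11, for the cystine importer, was 4.38-fold higher at a far lower level, and that of Chac1, for an enzyme that degrades glutathione, 2.67-fold higher. The 3 synthesis genes Gclc, Gclm and Gss had ratios of 1.04, 0.977 and 0.916.

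Of the 8 genes abundant enough to be tested, 1 was called (Cth, higher), beside 2.72% of all 10228 tested loci in either direction, 1.53% higher and 1.19% lower with 2DG (limma, Benjamini-Hochberg adjusted p under 0.05). The groups did not overlap for 3 of the 8, with Cth and Chac1 higher and Gpx4 lower, beside 23.7% of tested loci, 11.9% higher and 11.8% lower. The median log2 fold change of the 8 was 0.01, and that of all tested loci -0.01. Since this comparison was in view when the genes were chosen, nothing is read from these counts. The plot of levels by library gives the values gene by gene.

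**Figure D1:**
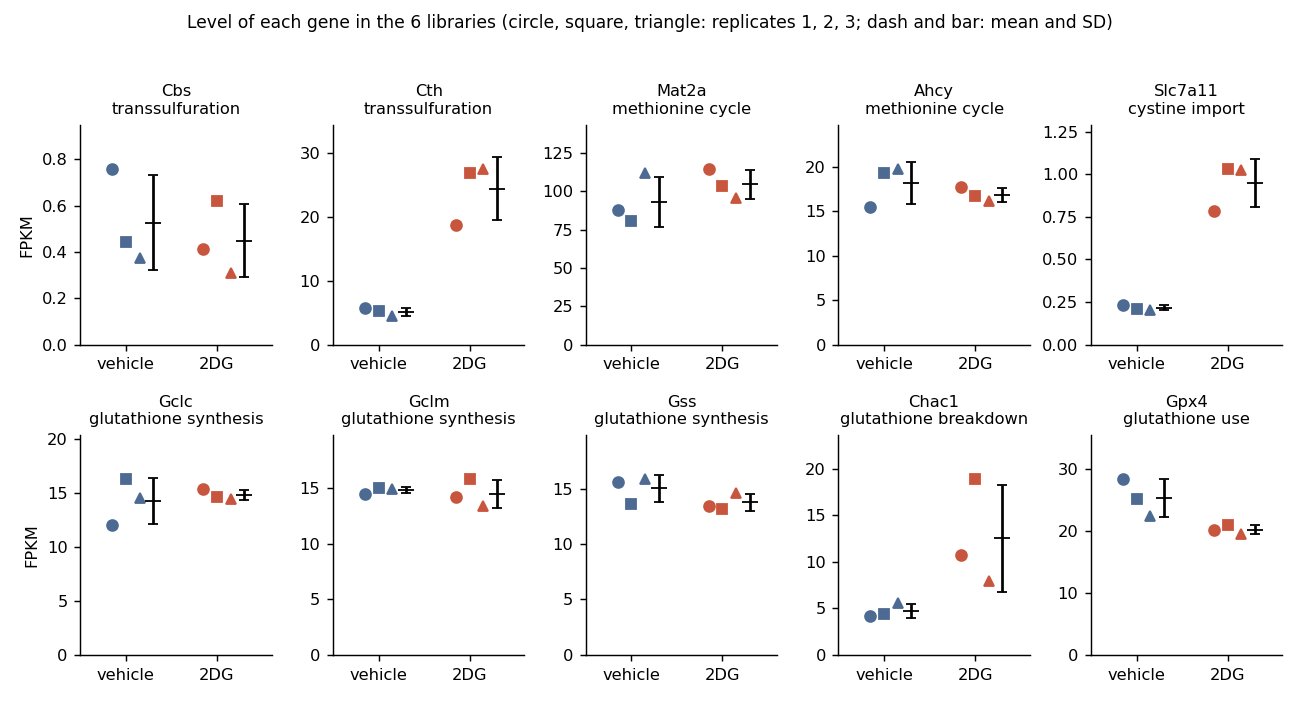
FPKM (y axis, from 0, with a scale of its own for each gene) of the 10 genes in the 3 vehicle (blue) and 3 2DG (red) libraries. Symbols mark replicates 1 to 3, and the dash and bar give the mean and SD of a group. The groups do not overlap for Cth, Slc7a11 and Chac1, which are higher with 2DG, and for Gpx4, which is lower, and they overlap for the other 6 genes.

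The labelled identity was checked against defining markers. The T cell genes Cd3e, Cd3d, Cd4 and Cd28 summed to between 444 and 537 FPKM with vehicle and between 442 and 564 FPKM with 2DG. The Th17 cytokine genes averaged 252 ± 16.1 and 652 ± 69.2 FPKM for Il17a and 1501 ± 136 and 1958 ± 306 FPKM for Il17f (SD, n = 3 each). Of the B cell markers, Cd79a averaged 0.484 and 0.418 FPKM and Ms4a1 0.162 and 0.190 FPKM. Myeloid markers (Lyz2, Csf1r, Itgam, Emr1, Cd68) summed to at most 4.60 and 3.25 FPKM, and CD8 markers to at most 3.31 and 5.51 FPKM. The 2 haemoglobin loci examined were listed at 0 in every library. Of 3 NK markers Klrb1c was listed at 0 in every library and Ncr1 was near 0, but Klrd1, which T cells can also express, averaged 26.8 FPKM with vehicle and 13.4 FPKM with 2DG. Bulk values cannot tell fewer cells of a type from less RNA per cell. Absolute depth is unknown; steps between low values gave a rough relative depth of 0.416 to 1.1, with vehicle replicate 1 at 1. Replicate 1 of either group differed from the rest in Rn45s, the ribosomal RNA precursor, whose 2 values were 12874 (vehicle) and 7186 FPKM (2DG), against a listed 0 in the other 4 libraries.

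Promoter sequence is shown because Cth, Slc7a11 and Chac1 are all known targets of ATF4, the transcription factor of the amino acid stress response, while Gclc, Gclm and Slc7a11 are known targets of NRF2, the factor of the antioxidant response. RefSeq windows (GRCm38.p6, the assembly that mm10 denotes) from 250 bases before to 50 after a gene's start were matched for 8 of the 10 genes, the others being Cth and Gclc. Both strands were searched for the core of the C/EBP-ATF response element, TGATGNAA, and for the core of the antioxidant response element, TGACNNNGC. No match of one overlapped a match of the other in the stretches printed, which run from 250 to 16 bases before the start, 5′ to 3′ on the gene's strand, with matches in capitals.
Chac1 (chr2:119350992-119351226, plus strand): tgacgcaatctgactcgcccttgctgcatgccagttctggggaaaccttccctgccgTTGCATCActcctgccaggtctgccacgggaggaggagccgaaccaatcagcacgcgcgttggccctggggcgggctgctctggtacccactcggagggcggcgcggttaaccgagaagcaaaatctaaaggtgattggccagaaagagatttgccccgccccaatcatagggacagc
Slc7a11 (chr3:50443629-50443863, minus strand): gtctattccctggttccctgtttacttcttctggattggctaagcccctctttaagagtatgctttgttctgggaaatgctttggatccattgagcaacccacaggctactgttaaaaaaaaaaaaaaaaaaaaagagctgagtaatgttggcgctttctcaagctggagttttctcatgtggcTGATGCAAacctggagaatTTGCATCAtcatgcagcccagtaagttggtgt
Gclm (chr3:122245307-122245541, plus strand): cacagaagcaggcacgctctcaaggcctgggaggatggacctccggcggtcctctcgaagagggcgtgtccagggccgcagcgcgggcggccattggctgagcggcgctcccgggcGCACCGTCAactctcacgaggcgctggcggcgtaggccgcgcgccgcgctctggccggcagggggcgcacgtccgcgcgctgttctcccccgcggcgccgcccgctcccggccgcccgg
The Chac1 window held 1 match to the C/EBP-ATF core, on the reverse strand with its first base at -193. Slc7a11 held 2, in opposite orientation at -66 and -47. Neither of these windows held a match to the antioxidant core, although Slc7a11 is a known target of NRF2 too. Gclm held no match to the C/EBP-ATF core and 1 match to the antioxidant core, at -134 on the reverse strand. The windows of Cbs, Mat2a, Ahcy and Gss and the 4 windows of Gpx4 held neither motif. Of all 32851 windows, 3.97% held the C/EBP-ATF core and 12.4% the antioxidant core. A match of letters is a description and shows no binding.

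Transsulfuration has 2 steps. Cbs, for cystathionine beta-synthase, which joins homocysteine to serine (chromosome 17, 31608894 to 31637238), was barely detected. Its vehicle libraries stood at 0.760, 0.444 and 0.375 FPKM, its 2DG libraries at 0.413, 0.621 and 0.311 FPKM. These ranges overlapped, and the locus lay under the mean of 1 FPKM over the 6 libraries that was required for testing. Cth, for cystathionine gamma-lyase, which splits cystathionine into cysteine (chromosome 3, 157894248 to 157925077, minus strand), stood at 5.74, 5.18 and 4.51 FPKM in the vehicle libraries and at 18.7, 26.9 and 27.5 FPKM in the 2DG libraries. All 2DG libraries lay above all vehicle libraries, the lowest of them replicate 1. Within a replicate number the 2DG to vehicle ratio of Cth was 3.25 for replicate 1, 5.19 for replicate 2 and 6.10 for replicate 3. The log2 fold change of (FPKM + 1) was 2.03 ± 0.16 (SE), with a 95% interval from limma's pooled spread of 1.65 to 2.41. The FPKM of Cth was 10.4 ± 2.49 times that of Cbs with vehicle and 59.0 ± 25.6 times with 2DG (SD, n = 3 each), a ratio whose error is large because Cbs was so low.

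The methionine cycle genes upstream of this branch overlapped between the groups. Mat2a, for the enzyme that makes S-adenosylmethionine outside the liver (chromosome 6, 72432799 to 72439558), was the most abundant of the 10 genes, with 87.5, 80.4 and 112 FPKM in the vehicle libraries and 115, 103 and 96.0 FPKM in the 2DG libraries. Ahcy, for the enzyme that releases homocysteine (chromosome 2, 155059310 to 155074497), was at 15.5, 19.3 and 19.8 FPKM and at 17.7, 16.6 and 16.1 FPKM. Their log2 fold changes were 0.18 (95% interval -0.14 to 0.49) and -0.10 (-0.35 to 0.16), so changes up to these bounds are not excluded by the spread. Ahcy has a near-identical copy, Gm4737 (99.7% over 2083 nt of its longest coding transcript), and Mat2a a processed pseudogene, Gm9523 (95.2% over 1065 nt), so reads may be split between copies. Mat2a also shares exon bases with Particl on the other strand.

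The transcript of the cystine importer was low throughout. Slc7a11, for the light chain xCT of the cystine-glutamate exchanger (chromosome 3, 49892526 to 50443614), had vehicle values of 0.234, 0.209 and 0.205 FPKM and 2DG values of 0.784, 1.03 and 1.02 FPKM. The groups were far apart relative to their spread (0.216 ± 0.0158 and 0.947 ± 0.141 FPKM, SD, n = 3 each), with 2DG replicate 1 the lowest of its group, as for Cth. The 2DG to vehicle ratio was 3.35, 4.93 and 4.999 within replicates 1, 2 and 3. The mean over all libraries was under 1 FPKM, so the gene was not tested, and on the log2(FPKM + 1) scale its fold change in a fit without that filter was 0.68 ± 0.07 (SE), on a scale whose pseudocount of 1 is above its vehicle values and close to its 2DG values and so understates the change. An aligned stretch of 373 nt in its longest transcript (nucleotides 3399 to 3770 of 9223, beyond the coding end at 1856) was 95.4% to 96.2% identical to the alpha-tubulin genes Tuba1a, Tuba1b and Tuba1c. Their vehicle means were 59.9, 122 and 35.5 FPKM and their 2DG means 46.0, 119.5 and 31.0 FPKM. Pseudogenes shared the same stretch, among them Gm14150 and Gm3226 (96.5% identical). Whether the authors' model of Slc7a11 holds this stretch is not given, and an effect of shared reads was not tested.

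Slc3a2, for the heavy chain that pairs with xCT and with other transporters, was at 49.3 ± 0.220 and 55.7 ± 6.46 FPKM (SD, n = 3 each), a difference that did not pass (limma adjusted p = 0.41). Slc1a4, for a transporter of small neutral amino acids that include cysteine, had means of 6.81 ± 0.378 (vehicle) and 15.6 ± 1.85 FPKM (2DG; SD, n = 3 each), and rose with a log2 fold change of 1.08 ± 0.11 (SE; limma adjusted p = 0.0054). Of 7 tested genes of cystine and cysteine transport beside Slc7a11, Slc1a4 was the only one called, which is 14.3% beside the 2.72% of all loci; the median log2 fold change was 0.22, and 5 of the 7 were higher without overlap and 1 lower, beside 11.9% and 11.8% of loci. With so few genes nothing particular to the list is read from this. Slc1a4 was higher in all 3 2DG libraries and lost its call only with replicates 2 and 3 alone (adjusted p = 0.060, range over all alternatives 0.0012 to 0.060).

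Glutathione synthesis takes 2 enzymes. Gclc, for the catalytic subunit of glutamate-cysteine ligase, the rate-limiting step (chromosome 9, 77754535 to 77794485), had vehicle values of 12.1, 16.3 and 14.5 FPKM and 2DG values of 15.4, 14.6 and 14.5 FPKM. Gclm, for the regulatory subunit of the same enzyme (chromosome 3, 122245557 to 122270732), was at 14.5, 14.99 and 14.9 FPKM and at 14.2, 15.8 and 13.4 FPKM. Gss, for glutathione synthetase, which adds glycine (chromosome 2, 155563181 to 155592810), was at 15.6, 13.6 and 15.9 FPKM and at 13.4, 13.2 and 14.6 FPKM. The groups overlapped for all 3 genes, and all 18 values lay between 12.1 and 16.3 FPKM, a span of 1.35-fold. The 95% intervals of their log2 fold changes ran from -0.21 to 0.33 for Gclc, from -0.24 to 0.17 for Gclm and from -0.33 to 0.10 for Gss. The ligase subunits stayed near equal levels, with a Gclc to Gclm ratio of 0.964 ± 0.129 with vehicle and 1.03 ± 0.0919 with 2DG (SD, n = 3 each). Gss shares exon bases with Acss2, Gssos1 and Gssos2 on the other strand. Gclm shares them with Gm6061 on its own strand and with Gm17494 on the other. The use of strand in counting is not given. Acss2 was at 6.64 and 4.86 FPKM.

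**Figure D2:**
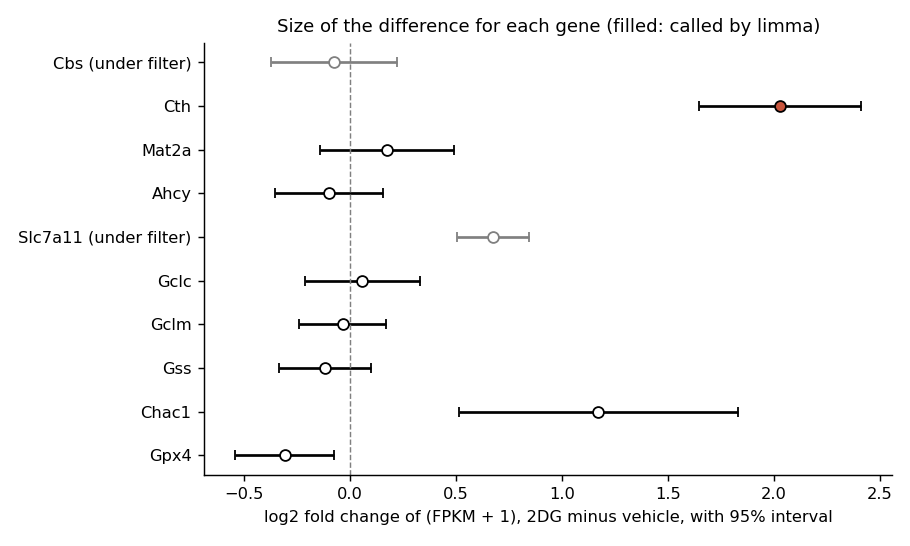
Log2 fold change of (FPKM + 1), 2DG minus vehicle (x axis), with 95% intervals from limma, for each of the 10 genes. The filled point, Cth at 2.03, was the only one called; grey points lay under the filter and come from a fit without it. The intervals are a description, not adjusted for the number of loci or for the choice of the genes. Those of Gclc, Gclm and Gss span 0 and lie between -0.33 and 0.33. The intervals of Cth, Slc7a11 and Chac1 lie above 0 and that of Gpx4 (-0.54 to -0.07) below 0.

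Cth and the synthesis genes changed places in the order of levels per length. With vehicle the order was Mat2a, Gpx4, Ahcy, Gss, Gclm, Gclc, Cth, Chac1, Cbs and Slc7a11, where the ranges of Ahcy, Gss, Gclm and Gclc overlapped their neighbours', as did those of Cth and Chac1. With 2DG the order was Mat2a, Cth, Gpx4, Ahcy, Gclc, Gclm, Gss, Chac1, Slc7a11 and Cbs, so that Cth stood in place 2 rather than 7. There the ranges of Cth and Gpx4 overlapped, as did those of Gclc, Gclm and Gss. The wide range of Chac1, 7.89 to 18.9 FPKM, overlapped those of Gclc, Gclm, Gss, Ahcy and Cth. In each library, log2(FPKM + 1) of Cth less the mean of the same value for Gclc, Gclm and Gss was -1.15, -1.37 and -1.55 with vehicle and 0.36, 0.85 and 0.91 with 2DG. Cth was below the synthesis genes in all vehicle libraries and above them in all 2DG libraries. The group means of this difference, -1.36 ± 0.20 and 0.71 ± 0.30 (SD, n = 3 each), lay 2.06 apart. As the contrast was chosen with the rise of Cth known, it is a description.

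**Figure D3:**
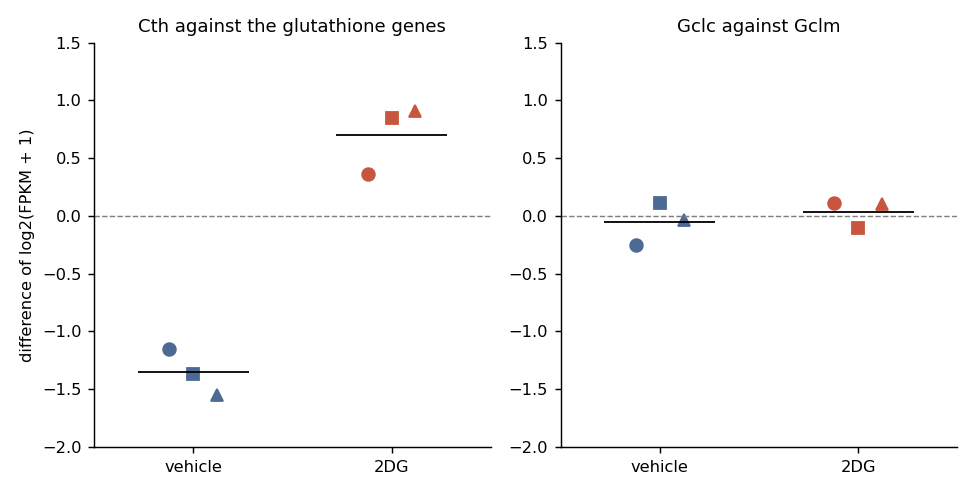
Difference of log2(FPKM + 1) in each library between Cth and the mean of Gclc, Gclm and Gss (left), and between Gclc and Gclm (right); symbols mark replicates 1 to 3 and lines the group means. On the left the vehicle libraries lie at or below -1.15 and the 2DG libraries at or above 0.36, while on the right the groups overlap.

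Downstream of synthesis are genes for the breakdown and use of glutathione. Chac1, for a gamma-glutamylcyclotransferase that cleaves glutathione (chromosome 2, 119351229 to 119354381), stood at 4.16, 4.38 and 5.53 FPKM in the vehicle libraries and at 10.7, 18.9 and 7.89 FPKM in the 2DG libraries. All 2DG values lay above the vehicle values but were widely spread, with replicate 2 highest and replicate 3 lowest, and ratios within a replicate number of 2.58, 4.32 and 1.43. The log2 fold change of 1.17 ± 0.28 (SE; 0.85 without 2DG replicate 2) was not called, and would be called without 2DG replicate 3 (1.43) or after rescaling to an equal sum (1.18). Gpx4, for the selenoenzyme that uses glutathione to reduce lipid peroxides (chromosome 10, 80047166 to 80056439), had vehicle values of 28.4, 25.2 and 22.4 FPKM and 2DG values of 20.3, 20.9 and 19.5 FPKM. The 2DG values lay below all vehicle values by a small margin, with a log2 fold change of -0.31 ± 0.10 (SE; 95% interval -0.54 to -0.07, not adjusted for the number of loci) that was not called. Gpx4 has a copy, Gpx4-ps2, 99.7% identical over 733 nt.

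The other genes of the pathways were taken from 8 lists chosen by function, and their counts of calls stand beside the 2.72% of all tested loci, a share at which lists of this length hold few calls or none. In the methionine cycle and salvage list, limma called 0 of 14 tested genes in either direction (median log2 fold change 0.09). It called 0 of 11 for cysteine use and hydrogen sulfide oxidation (median -0.15), and 0 of 10 for genes of ferroptosis, the form of death that Gpx4 prevents (median -0.05). Of 25 genes of glutathione use, recycling and breakdown, Hagh was lower and none was higher (median -0.09). Hagh, for glyoxalase II, which frees glutathione from its adduct with lactate, fell from 19.5 ± 0.556 to 14.6 ± 0.629 FPKM (SD, n = 3 each; limma adjusted p = 0.045). Gsr, for the reductase that regenerates glutathione, was at 55.1 and 45.3 FPKM (adjusted p = 0.29), and Gpx1, for a cytosolic glutathione peroxidase, at 272 and 245 FPKM (adjusted p = 0.39). Of 18 genes of the thioredoxin system and the peroxiredoxins, Prdx4, for the peroxiredoxin of the endoplasmic reticulum, fell from 82.8 ± 13.7 to 51.4 ± 4.07 FPKM (limma adjusted p = 0.046) and none rose. The calls of Hagh and Prdx4 lay close to the threshold: each was kept in 5 of 17 alternatives, Hagh was lost without any single library and Prdx4 when any 1 library other than vehicle replicate 3 was left out (adjusted p over the alternatives 0.035 to 0.59 for Hagh and 0.019 to 0.23 for Prdx4).

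The last lists hold the regulators and targets of NRF2 and ATF4. Of 11 tested NRF2 regulators and targets outside glutathione, limma called 0 (median -0.04). Nfe2l2, the gene of NRF2 itself, was at 17.1 ± 1.23 and 13.0 ± 1.64 FPKM (adjusted p = 0.13), and Keap1, its repressor, at 32.2 and 34.5 FPKM (adjusted p = 0.58). The NRF2 target Txnrd1, counted in the thioredoxin list and not among these 11, was at 81.2 and 67.8 FPKM (adjusted p = 0.15). Nqo1, a classical NRF2 target, stayed under 0.84 FPKM in every library. Of 26 tested ATF4 regulators and targets outside transsulfuration, 4 rose and 0 fell, which is 15.4% beside the 2.72% of all loci, with a median log2 fold change of 0.37. Leaving out vehicle replicate 2 gave a count of 1, and leaving out 2DG replicate 2 a count of 2; in 6 alternatives Atf3, a member of the list, was called lower (lowest adjusted p = 0.022). Slc7a3, for a transporter of cationic amino acids, rose from 3.63 ± 0.438 to 20.2 ± 3.35 FPKM (limma adjusted p = 0.0016), and Asns, for asparagine synthetase, from 54.6 ± 11.7 to 121 ± 13.4 FPKM (adjusted p = 0.017). Stc2, for a secreted glycoprotein, was at 0.778 and 6.62 FPKM (adjusted p = 0.017). It passed the filter on low values only through its 2DG libraries, so nothing is read from its call. With a minimum mean of 5 FPKM, where Stc2 was not tested, the list had 3 calls, all higher. Mthfd2, for a mitochondrial folate enzyme, went from 95.7 ± 8.89 to 145 ± 3.58 FPKM (adjusted p = 0.018). Atf4 was at 187 ± 9.75 and 241 ± 44.2 FPKM (adjusted p = 0.23) and Ddit3, for CHOP, at 23.9 ± 12.3 and 20.9 ± 10.0 FPKM (adjusted p = 0.88). The rises of Slc7a3 and Stc2 were known when the list was made, so its count is not independent evidence. Slc7a3 kept its call in all 17 alternatives. Asns lost it without vehicle replicate 2 or 3 or 2DG replicate 2 and with the replicate block (highest adjusted p = 0.067), Stc2 without vehicle replicate 2 and with replicates 2 and 3 only (0.054), and Mthfd2 when any 1 library other than vehicle replicate 1 was left out, with the replicate block, at an equal sum and with replicates 2 and 3 only (highest over all alternatives 0.23).

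**Figure D4:**
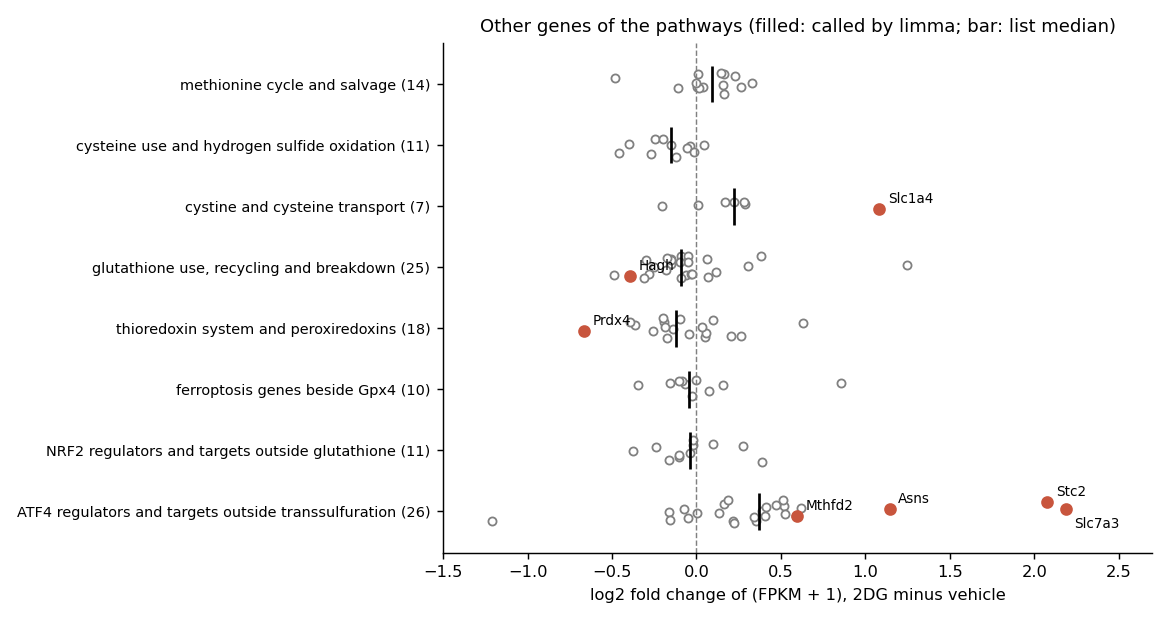
Log2 fold change of (FPKM + 1), 2DG minus vehicle (x axis), of each tested gene in the 8 lists (rows, number of tested genes in brackets); filled points were called and the black bars are list medians. Of the 7 called genes, Slc7a3, Stc2, Asns, Mthfd2 and Slc1a4 lie to the right and Hagh and Prdx4 to the left; the ATF4 list has the median of 0.37.

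Genes whose log2(FPKM + 1) over the 6 libraries was among the most like that of Cth, out of 9079 named single-gene loci, were Cox7a2l (Pearson r = 0.998), Upb1 (0.996), Slc7a3 (0.996) and Zc3h12d (0.991). The 6 points share 2 groups, so the likeness rests largely on the difference between them, and 121 loci had an r over 0.95. The sizes differed: Upb1 went from 0.596 to 2.56 FPKM, Slc7a3 was 5.58-fold higher, and Cox7a2l went only from 91.1 to 115 FPKM. Upb1 passed the filter on low values only through its 2DG libraries.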

How the data were processed

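RNA of 3 vehicle and 3 2DG cultures was sequenced. The authors deposited 1 table of FPKM, per the file headers, with 23203 loci by 6 libraries. Cuffdiff 2.2.1.3, Cuffnorm 2.2.1.1, Cufflinks 2.2.1.0, TopHat2 2.1.0 and the mm10 build are listed in the submitters' processing notes. Annotation, use of strand and scaling method: not given in the sources used here. FPKM are not counts, absolute depth is unknown, and a listed 0 may be an estimate that failed. The 10228 loci averaging at least 1 FPKM over all libraries were fitted on log2(FPKM + 1) using limma 3.58.1 (R 4.3.3), group as the only term, eBayes with trend, two-sided, Benjamini-Hochberg over all tested loci, threshold 0.05; the pseudocount understates changes of low genes. Folds without log2 are ratios of mean FPKM. An exact test of 3 against 3 cannot go below 0.1. The code was tested on simulated data. The members, the lists, the tests and the alternatives were chosen with earlier results of these data known. Named genes are the 10 members, called list genes (up to 4 a list by smallest p), a fixed set of 10 (Atf4, Ddit3, Asns, Nfe2l2, Keap1, Nqo1, Slc3a2, Gsr, Gpx1, Txnrd1), the markers and the 5 genes most like Cth; some of these markers and like genes are not reported here. Alternatives changed the pseudocount, filter, scaling, model terms, eBayes options and libraries. Coordinates are from GENCODE M21 (GRCm38); copies were sought with blastn 2.17.0 at 95% identity over 200 nt. Every listed symbol was matched to a locus, 1 of them through a synonym.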

Additional observations from a re-analysis of the deposited data

How the results depend on the processing

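The log2 fold change of Cth was 1.94 to 2.27 over 17 alternatives, given as a description. The number of called genes among the 10 was 2 after rescaling to an equal sum (with Chac1), 2 with no filter (with Slc7a11), and 1 to 2 with 1 library left out. The distance of Cth from the glutathione synthesis genes, 2.06, was 2.34 with replicates 2 and 3 only and 1.96 to 2.23 with 1 library left out. Over all loci, 278 calls became 446 with robust eBayes, 154 at an equal sum, 165 with no filter, 184 with a term for replicate 1, 71 with replicates 2 and 3 only, and 79 to 167 with 1 library left out (146, 85 and 139 for vehicle replicates 1, 2 and 3, and 81, 79 and 167 for 2DG replicates 1, 2 and 3). The 4 calls of the ATF4 list became 9 with robust eBayes and 8 after quantile normalization, each with Atf3 lower, 2 with only replicates 2 and 3, and 1 to 5 with 1 library left out. The transport list had 0 calls with replicates 2 and 3 only. The glutathione use list (1 call) had 0 without trend, at an equal sum, with no filter, with a term for replicate 1 and without each library in turn, and with replicates 2 and 3 only its 1 call was Gstt1, higher, in place of Hagh. The thioredoxin list (1 call) had 0 without trend, at an equal sum or median, with no filter, with a term for replicate 1 and with replicates 2 and 3 only, and 0 to 1 with 1 library left out. With the replicate block, calls over all loci were 101, in the ATF4 list 2, and in the glutathione use and thioredoxin lists 0 each. Same-numbered libraries share a number in their titles whose meaning the labels do not give. Their deviations had r = -0.05, 0.19 and -0.11 for replicates 1, 2 and 3, and vehicle replicate 1 correlated best with 2DG replicate 3. The replicate 1 libraries share high Rn45s and a lower FPKM sum. Whether the numbers pair the samples was not settled, so the block was kept as an alternative. The cause of these shifts was not tested. With 3 libraries a group and unknown depth, small differences cannot be resolved.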

Other observations

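Several genes of the ATF4 list, named here after their values were seen, fell just short of the threshold and were not called. They were Psph, Psat1 and Shmt2, for enzymes that make serine and glycine, of which Cbs uses serine and Gss uses glycine, and Sesn2, for a sestrin that dampens mTORC1. Psph was at 52.7 ± 8.67 and 80.9 ± 5.42 FPKM (limma adjusted p = 0.053), Psat1 at 183 ± 18.3 and 262 ± 23.8 FPKM (0.056), Shmt2 at 139 ± 3.72 and 186 ± 16 FPKM (0.056) and Sesn2 at 10.7 ± 0.322 and 15.2 ± 1.94 FPKM (0.065), all SD with n = 3 each. In each of them the 2DG group was higher without overlap, as in 11.9% of all tested loci. Of the 26 tested genes of the list, 14 were higher without overlap and 1 lower, beside 11.9% and 11.8% of all tested loci. The 14 include Stc2, which passed the filter on low values only through its 2DG libraries. As Psph, Psat1, Shmt2 and Sesn2 were named after their values were seen, nothing is read from these values and counts. Atf3, for a stress factor, had the lowest fold change of the same list, at 5.42 ± 2.02 and 1.70 ± 0.376 FPKM (adjusted p = 0.053). Chac2, for the other cytosolic glutathione-degrading cyclotransferase, was at 5.29 ± 0.472 and 7.20 ± 0.583 FPKM (adjusted p = 0.12).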
